A study of Mus musculus with 39 samples.

Results

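The telomere-proximal distal ends of the mouse autosomes were taken as all 100 kb bins that lay wholly within the last 10 Mb of chromosomes 1 to 19 in mm10. They numbered 1881, with 99 on each chromosome, of 24620 bins on these chromosomes, and the other 22739 bins served as the rest of the same chromosomes. Position alone chose the bins, and none of the values below was used for it. Each bin was given the domain at its midpoint in 2 lists, both from wild type R1 cells, an embryonic stem (ES) cell line from the inner cell mass of the mouse blastocyst. The list of nucleosome wrapping domains (NRDs) came from H3-wrapping-seq (4 libraries of 2 experiments), and the list of replication timing (RT) domains came from BrdU-labelled DNA of 4 S phase fractions. The study has 8 libraries of these fractions, and whether all of them entered the RT list is not stated. Apart from the BrdU pulse of the RT libraries, the labels give these cells no treatment and no genetic change. The other libraries of the study were not analysed here.

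Mouse autosomes carry their centromere at one tip, so the distal end of the long arm runs into a telomere, an array of TTAGGG repeats that shelterin proteins protect. The sequence next to a telomere, the subtelomere, is often rich in repeats and in copies of gene families, and in many organisms it replicates late and is silenced. An NRD is called tight (TiNRD) where its nucleosome wrapping index (NRI), a score that compares longer with shorter DNA fragments held by nucleosomes, is positive, and loose (LoNRD) where it is negative. An RT domain is early where its value, the log2 ratio of early to late S phase fractions, is positive, and late where it is negative. Early replication is known to go with gene-dense, transcribed chromatin, and late replication with gene-poor chromatin at the nuclear lamina.

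The sequence of the assembly shows what the last bins contain. On every autosome a terminal gap of 100 kb (150 kb on 2 chromosomes) without bases closed the chromosome, and the last 10 kb of assembled bases before it held between 4 and 118 copies of the telomere hexamer TTAGGG or of its complement CCCTAA (median 46). Of 930 copies in all, 887 were TTAGGG on the + strand, the orientation that points towards the telomere. Chromosome 14 had the most copies (118) and chromosome 4 the fewest (4). Whole bins of 100 kb, longer than this window of 10 kb, held 41.3 copies on average in the distal ends and 40.7 in the rest. The 4 copies on chromosome 4 are therefore no sign of a telomere array. The last 100 assembled bases of chromosome 4, chosen after they were seen, are shown because this window held no copy of the hexamer, and they are therefore all in lower case.
chr4:156358017-156358116 (GRCm38, + strand): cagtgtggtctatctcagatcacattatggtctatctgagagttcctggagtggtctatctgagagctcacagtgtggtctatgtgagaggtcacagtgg
No read can be aligned inside the terminal gap.

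Distal bins lay in TiNRDs more often than the rest of the same chromosomes. Of 1881 distal bins, 1353 had a TiNRD, 513 a LoNRD and 15 no NRD, and over all bins of the 19 chromosomes 52.9% of those with an NRD lay in a TiNRD. Averaged over chromosomes, the TiNRD share of bins with a call was 72.6% ± 23.4 (SD, n = 19 chromosomes) in the distal ends and 51.9% ± 8.98 (SD, n = 19 chromosomes) in the rest. The share was higher in the distal end on 14 of 19 chromosomes, by 20.7 percentage points on average (p = 0.00217, adjusted p = 0.0094, two-sided permutation test by sign flips of the chromosome differences, Benjamini-Hochberg over 13 tests). The mean NRI of the domain at each bin was 0.48 ± 0.54 (SD, n = 19 chromosomes) in the distal ends and 0.03 ± 0.18 in the rest (adjusted p = 0.0094, same permutation test). Both lists are 1 call without replicates, so chromosomes were the unit of each test, and the p-values describe the spread between chromosomes of these lists.

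Distal bins were also replicated early more often. Early RT domains held 1096 distal bins, late domains held 700, and 85 bins had no RT call, and over all bins of the 19 chromosomes 47.4% of those with an RT call were early. The mean early share was 61.1% ± 23.9 (SD, n = 19 chromosomes) in the distal ends and 46.9% ± 7.38 in the rest, a difference of 14.3 percentage points (p = 0.0119, adjusted p = 0.0257, two-sided permutation test), and it was higher in the distal end on 12 of 19 chromosomes. The mean RT value was 0.35 ± 0.56 on the log2 scale in the distal ends and 0.03 ± 0.19 in the rest (adjusted p = 0.0257, permutation test). The rest includes assembly gaps at the chromosome starts that the RT list calls early. Among bins with at least 50% of assembled bases the early shares were 60.8% and 45.3% (p = 0.00657, permutation test). When the distal end was limited to the last 5 Mb, neither share passed the threshold, with differences of 13.3 percentage points for TiNRD (p = 0.133, permutation test) and 13.3 for early RT (p = 0.0549).

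Distal ends differed widely from each other, which the map of domain values by chromosome and distance shows. Chromosomes 4 and 7 lay in TiNRDs in 100% of their distal bins with a call, with mean NRI of 1.28 and 1.05. Chromosomes 5, 9, 11 and 15 had TiNRD shares of 94.9, 94.9, 95.9 and 96.0%. At the other extreme stood chromosome 3 with 30.3%, followed by chromosomes 13, 17, 18 and 14 with 39.4, 40.4, 43.4 and 48.5%, and these 5 chromosomes were those where the distal end had a lower TiNRD share than the rest. The early share was highest on chromosome 11 (93.5%) and lowest on chromosome 18 (20.2%), whose rest was 43.7% early.

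**Figure D1:**
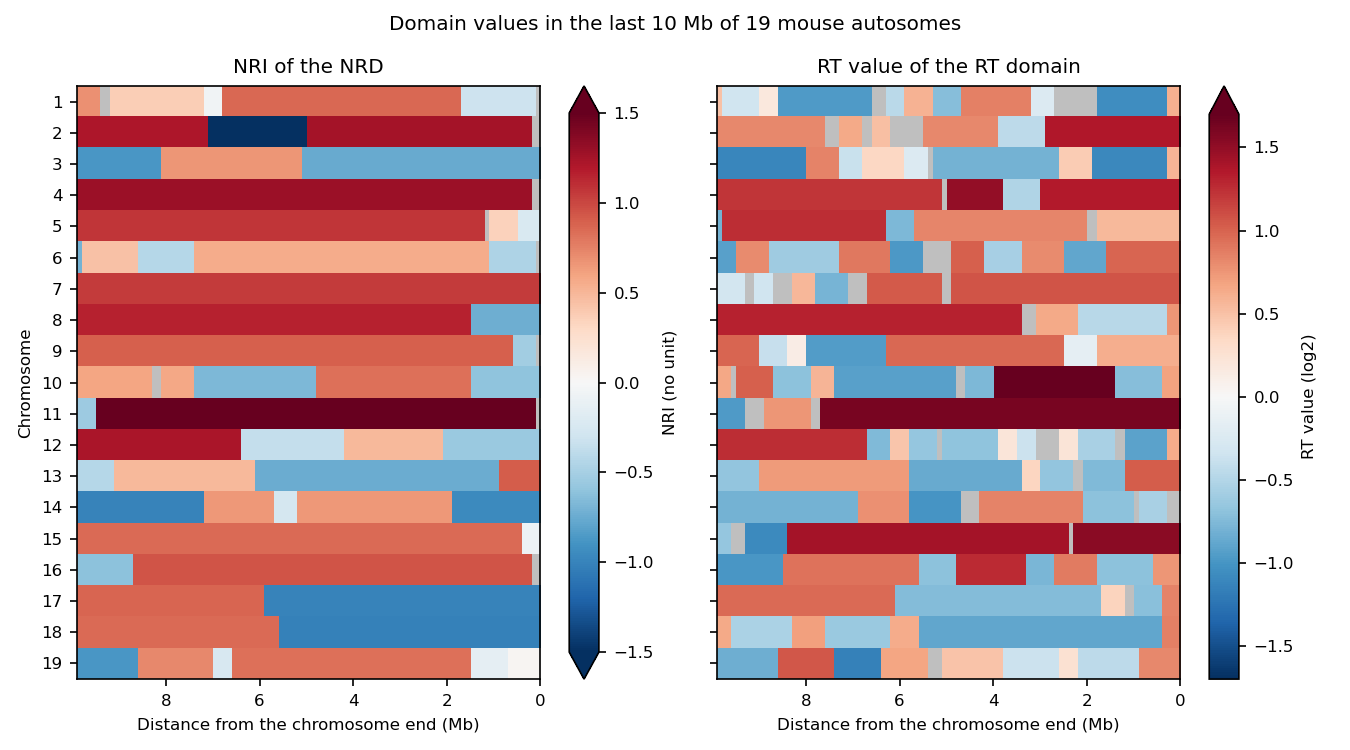
NRI of the NRD (left) and RT value of the RT domain (right, log2) at each 100 kb bin of the last 10 Mb of chromosomes 1 to 19, by distance from the chromosome end in Mb, with positive values in red, negative values in blue and bins without a call in grey. Chromosomes 4, 7 and 11 are red over most of their length in both panels, while chromosomes 3, 17 and 18 have long blue stretches next to the end.

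**Figure D2:**
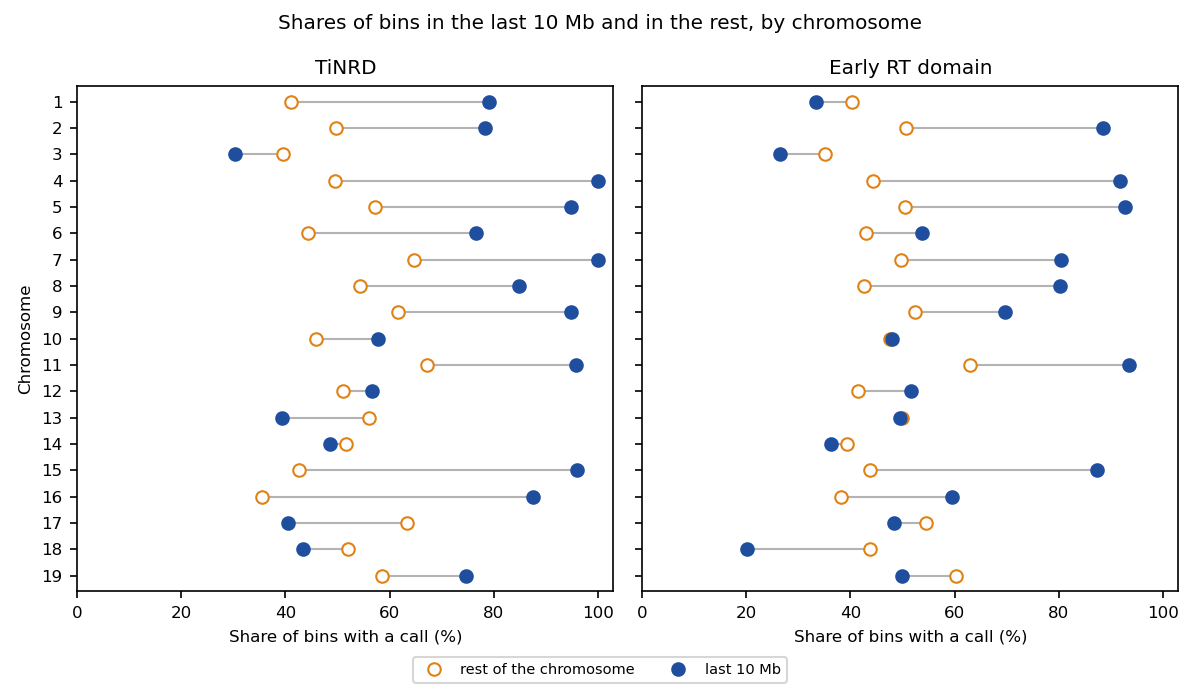
Share of bins with a call that lay in TiNRDs (left) and in early RT domains (right), in percent, for the last 10 Mb (filled) and the rest (open) of each of 19 chromosomes, joined by a line. The TiNRD share is higher in the last 10 Mb on 14 chromosomes and the early share on 12.

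On chromosomes 1 and 19 the 2 readouts moved apart. The distal end of chromosome 1 had a TiNRD share of 79.2% against 41.1% in its rest, while its early share was 33.3% against 40.3%. For chromosome 19 the TiNRD share was 74.7% against 58.6%, and the early share 50.0% against 60.4%. Over all distal bins with both calls (1781), 997 were TiNRD and early, 405 LoNRD and late, 291 TiNRD and late, and 88 LoNRD and early. TiNRD with late replication made up 16.3% of distal bins with both calls and LoNRD with early replication 4.94%, against 12.2% and 5.66% in the rest. The former was thus the more frequent in both. That order follows from a TiNRD share above the early share and is no separate result. Within the distal ends TiNRD late bins outnumbered LoNRD early bins on 16 of 19 chromosomes, a count not made for the rest. The largest numbers of TiNRD late bins were on chromosomes 1 (38 of 84 bins with both calls), 6 (30 of 92), 9 (30 of 98), 16 (28 of 97), 18 (27 of 99) and 19 (25 of 96). Corresponding calls, meaning TiNRD with early or LoNRD with late, made up 78.6% ± 12.2 (SD, n = 19 chromosomes) of distal bins and 81.9% ± 3.99 of the rest, where over all bins the share was 81.8%. The difference of -3.27 percentage points did not pass the test (p = 0.313, permutation test), and the widest gap was -30.8 percentage points, on chromosome 1.

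The combinations differed in sequence and gene content. In the distal ends, TiNRD early bins had 53.1% A/T and 16.3 protein-coding genes per Mb, and TiNRD late bins had 56.2% A/T and 2.89 genes per Mb, against 57.0% and 5.65 genes per Mb for TiNRD late bins of the rest. LoNRD early bins had 60.1% A/T and 8.86 genes per Mb, and LoNRD late bins 61.3% A/T and 3.75 genes per Mb. The median NRI of TiNRD bins was 0.89 in the distal ends (quartiles 0.83 and 1.15) and 0.73 in the rest (0.50 and 1.00). For LoNRD bins the medians were close to each other, with -0.76 and -0.78. These values are descriptions over bins that share domains, with no test.

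The longest stretch of each combination shows which genes lay in it. The longest TiNRD early stretch was chr11:114300001-121900000, 7600 kb with 200 protein-coding genes, a mean NRI of 1.49, an RT value of 1.62 and 50.2% A/T. It begins with Rpl38, a ribosomal protein gene, and holds Grb2, an adaptor of receptor tyrosine kinase signalling, Itgb4, an integrin of hemidesmosomes, and H3f3b, which encodes histone H3.3. The longest LoNRD late stretch was chr18:85100001-90300000, 5200 kb with 7 genes, an NRI of -1.01, an RT value of -0.89 and 62.3% A/T. Among its genes were Neto1, an auxiliary subunit of glutamate receptors, Cbln2, a synaptic organizer, Rttn, a centriole protein, and Cd226, a receptor of T and NK cells. The longest TiNRD late stretch was chr9:116500001-118200000, 1700 kb with an NRI of 0.89 and an RT value of -0.95, and its 3 genes were Rbms3, which encodes an RNA-binding protein, Azi2, a gene of interferon signalling, and Cmc1, a mitochondrial protein gene. The longest LoNRD early stretch was chr6:148600001-149600000, 1000 kb with an NRI of -0.46 and an RT value of 0.99, and it held 9 genes, including the nuclear import receptor gene Ipo8 and Bicd1, which encodes a dynein adaptor. A second LoNRD early stretch, named after its values were seen, was chr2:176600001-177100000 with an NRI of -1.86, the lowest in any distal bin, an RT value of 0.81 and 8 genes, among them Zfp973, a zinc finger gene.

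Distal ends were poorer in A/T bases than the rest, and A/T content went along with the differences between chromosomes. The mean A/T content was 55.9% ± 2.73 (SD, n = 19 chromosomes) in the distal ends and 58.2% ± 0.786 in the rest, and it was lower in the distal end on 15 of 19 chromosomes (adjusted p = 0.0094, permutation test). The 9 distal ends lowest in A/T (51.0 to 55.2%) had TiNRD shares between 78.4 and 100% and early shares between 59.6 and 93.5%. In the 10 distal ends highest in A/T (56.3 to 59.7%), TiNRD shares ran from 30.3 to 79.2% and early shares from 20.2 to 53.8%. The groups overlapped slightly in TiNRD share and not in early share. CpG dinucleotides numbered 10.5 per kb in the distal ends and 8.41 in the rest, higher on 16 of 19 chromosomes, and repeats masked in the assembly took 30.0% and 33.6% of the bases. Protein-coding genes numbered 10.7 ± 6.12 per Mb (SD, n = 19 chromosomes) in the distal ends and 8.39 ± 2.61 in the rest, a difference that did not pass the test (p = 0.117, permutation test), with 2.53 genes per Mb in the distal end of chromosome 18 and 21.1 in that of chromosome 11. Without chromosome 17 the difference was 2.87 genes per Mb (p = 0.0418, permutation test). The rest includes an assembly gap of about 3 Mb at the start of each chromosome, which holds no bases. Among bins with at least 50% of assembled bases, genes numbered 10.8 and 8.64 per Mb (difference 2.12, p = 0.149, permutation test).

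**Figure D3:**
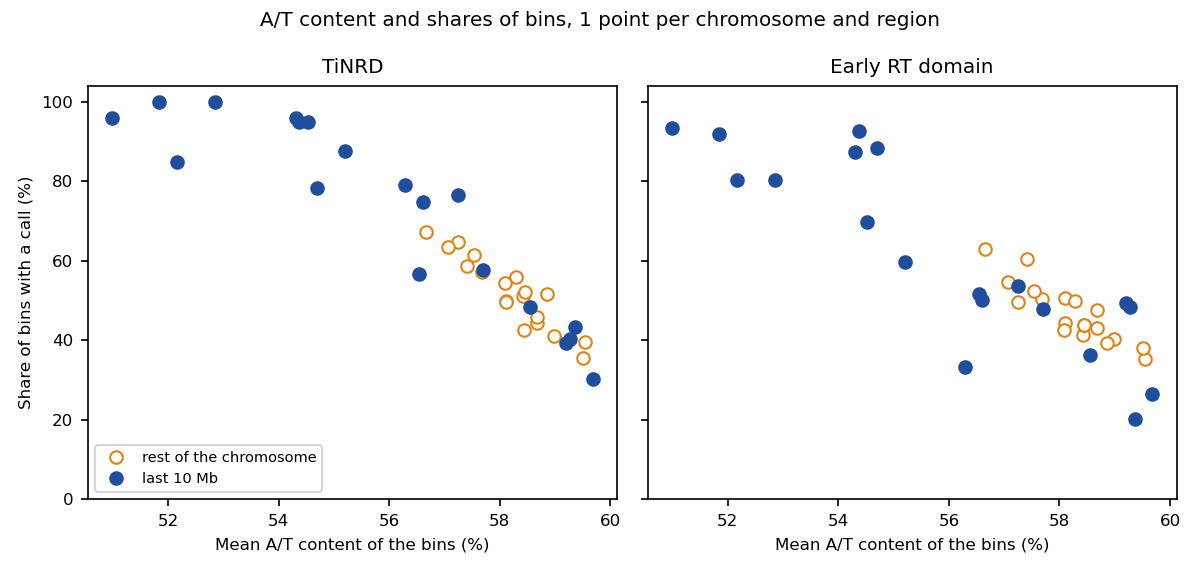
Mean A/T content of the bins (horizontal axis, percent) and share of bins with a call in TiNRDs (left) and early RT domains (right), in percent, for the last 10 Mb (filled) and the rest (open) of each of 19 chromosomes. The shares fall from the distal ends lowest in A/T to those highest in A/T, and the distal ends spread over 51.0 to 59.7% A/T, wider than the rest.

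At equal A/T content the differences between distal ends and rest were small. Each distal bin was set against the mean of rest bins in the same of 20 strata of A/T content. These rest bins came from all 19 chromosomes and not only from the bin's own chromosome. The TiNRD share was then 72.9% in the distal ends and 72.2% in rest bins of equal A/T content, a difference of 0.711 percentage points ± 3.81 (SD, n = 19 chromosomes, p = 0.425, permutation test). The early share was 60.8% against 63.7%, a difference of -2.88 ± 11.6 percentage points (p = 0.302, permutation test). Without the last 1 Mb, an alternative chosen after seeing the data, the early difference was -5.62 percentage points (p = 0.0546, permutation test). It was -1.27 without chromosome 1 and -1.83 with strata that also took in gene starts. With rest bins of the same chromosome only, in 5 strata, the differences were 1.52 percentage points for TiNRD (p = 0.181) and -2.87 for early RT (p = 0.344, permutation tests). A p-value above the threshold does not show that the shares are alike. The chromosome differences at equal A/T ran from -5.83 to 8.32 percentage points for TiNRD and from -31.9 to 13.2 for early RT. For the last 20 Mb, the early share at equal A/T differed from the rest by -4.73 percentage points and passed the unadjusted threshold (p = 0.0136, permutation test).

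Distal ends were compared with the first 10 Mb of the same chromosomes, next to the centromere. There the TiNRD share was 51.6% ± 28.4 (SD, n = 19 chromosomes), 21.0 percentage points below the distal ends, and the distal end was higher on 14 of 19 chromosomes (p = 0.0312, adjusted p = 0.0579, permutation test). The early share was 59.9% ± 12.4 next to the centromere and 61.1% in the distal ends (difference 1.21 percentage points, p = 0.83, permutation test). The first 10 Mb open with an assembly gap of about 3 Mb without bases, and on all 19 chromosomes the RT list placed an early domain there. When bins with under 50% of assembled bases were left out, the early share next to the centromere was 41.6% and the distal ends were 19.1 percentage points higher (p = 0.00498, permutation test).

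Within the distal ends, the TiNRD share was lowest in the last 1 Mb, and the drop began further in. In its 10 bins per chromosome the TiNRD share was 42.9% ± 44.8 (SD, n = 19 chromosomes), against 75.9% ± 23.6 in the other distal bins, lower on 13 chromosomes and higher on 4 (difference -33.0 percentage points, p = 0.0036, adjusted p = 0.0117, permutation test). On 9 chromosomes no bin of the last 1 Mb with a call was TiNRD, and on 5 chromosomes all were. The largest drop was on chromosome 8, with 0% in the last 1 Mb and 94.4% in the other distal bins, and chromosome 13 went the other way, with 9 of 10 bins TiNRD against 33.7%. At equal A/T content within the distal ends, in 10 strata, the difference was -9.64 percentage points (p = 0.00287, permutation test, an alternative chosen after seeing the data). Its reference was the other distal bins of all 19 chromosomes, not those of the same chromosome. The step from 1 to 2 Mb lay between, with a mean TiNRD share of 56.8%. For the last 2 Mb against the other distal bins the difference was -28.3 percentage points (p = 0.00131), and for the last 3 Mb -18.7 (p = 0.00544, permutation tests). The last 1 Mb had 58.2% A/T and 13.6 protein-coding genes per Mb. The step from 1 to 2 Mb had 56.8% A/T, and the steps from 2 to 10 Mb had between 54.6 and 56.5%.

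The RT list did not show this drop. The early share of the last 1 Mb was 67.9% ± 35.4 (SD, n = 19 chromosomes) and that of the other distal bins 60.3% ± 24.1 (difference 7.64 percentage points, p = 0.259, permutation test), and 9 chromosomes were early in all bins of the last 1 Mb with a call. Of 102 LoNRD bins of the last 1 Mb with an RT call, 49 were early (48.0%), against 39 of 391 (9.97%) in the other distal bins. In the rest 1192 LoNRD bins were early and 9054 late. Bins of a chromosome share domains, so these counts are descriptions with no test. In the step nearest the end only 36.6% of the bases are assembled. By 100 kb steps, all 18 bins with an RT call between 200 and 300 kb from the end were early, where 94.3% of the bases are assembled, and 7 of 19 were TiNRD. From 900 to 1000 kb, 9 of 18 were early and 8 of 19 TiNRD. The early share of the last 1 Mb depended on short domains. Among RT domains of at least 500 kb it was 55.3%, against 59.6% in the other distal bins (difference -4.30 percentage points, p = 0.638, permutation test). At equal A/T content in 10 strata, with all domains counted, the early share was 66.0% in the last 1 Mb and 38.6% in the other distal bins. The difference was 27.4 percentage points (p = 0.00013, permutation test, an alternative chosen after seeing the data). Here the other distal bins were those of all 19 chromosomes, so the comparison was not within chromosomes.

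**Figure D4:**
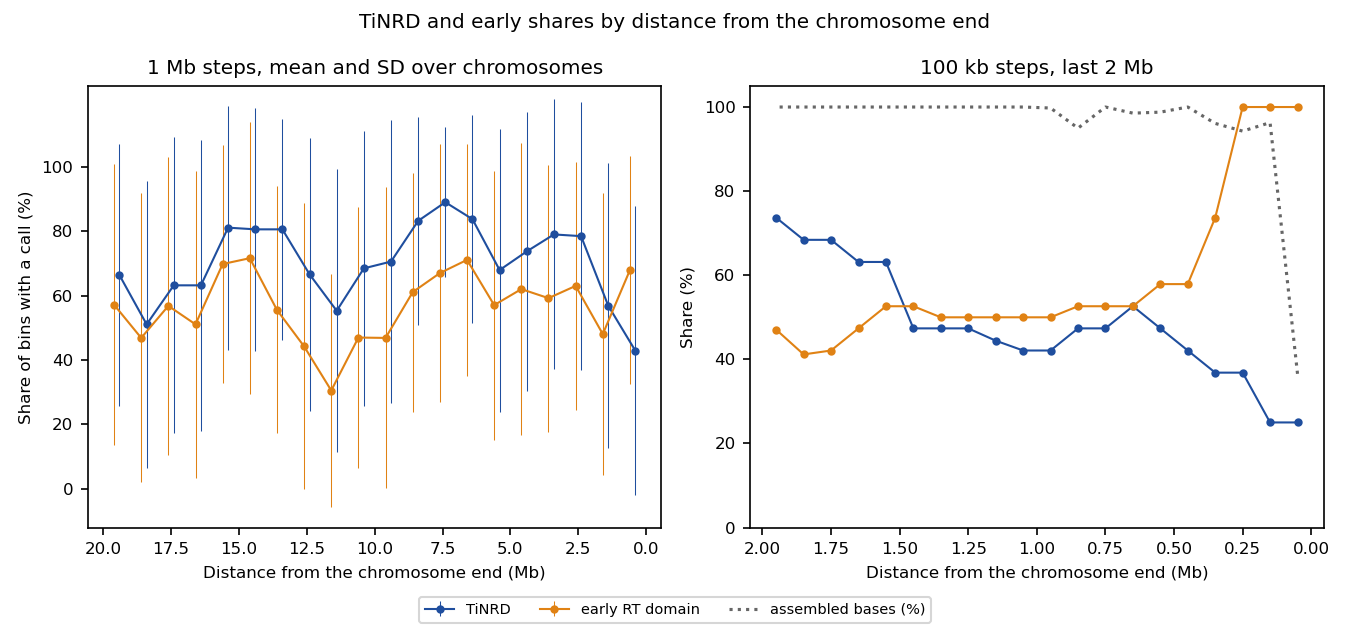
Share of bins with a call in TiNRDs and early RT domains by distance from the chromosome end in Mb, in percent, in 1 Mb steps to 20 Mb with the mean and SD over 19 chromosomes (left) and in 100 kb steps over all chromosomes for the last 2 Mb, with the percent of assembled bases as a dotted line (right). The TiNRD share drops to 42.9% in the last 1 Mb, and the early share reaches 100% in the 3 steps nearest the end.

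The last RT domain was early on 18 of 19 chromosomes and ended at the chromosome end on those 18, while the last NRD was a LoNRD on 12 chromosomes and a TiNRD on 7. For comparison, the 40 NRDs inside the distal ends were 21 LoNRDs and 19 TiNRDs, and of 113 RT domains inside them 62 were early. With 18 of 19 last RT domains early, nearly every last LoNRD had to meet an early one, and this was so on 11 chromosomes. On 7 of these 11 the last RT domain measured at most 500 kb, with 201 to 345 kb of assembled bases, an RT value between 0.58 and 0.86, and a late domain before it. On chromosome 18, for example, an early domain of 353 kb (RT value 0.86) followed a late domain of 5200 kb (RT value -0.89). On chromosome 3 an early domain of 340 kb (0.58) followed a late domain of 1550 kb (-1.09). Chromosome 14 was the exception, since its last RT domain was late (-0.55) and ended 252 kb before the chromosome end.

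The assembly gaps give a value to set beside these short domains. On 15 chromosomes the first RT domain ended within 100 kb of the end of the leading gap, and its RT value lay between 0.28 and 0.29, although the gap has no bases. The last early RT domains had values between 0.55 and 1.62, all above that range, and all 18 included the terminal gap. Whether the gap adds to the early call of the short last domains was not tested, since the list holds no value per window. The last NRDs ended between 1.21 and 213 kb before the chromosome end, and most of them also ran into the terminal gap. On chromosomes 8, 14 and 18 they ended 1.21, 2.24 and 2.64 kb before it, inside a gap of 100 kb. Whether the gap adds to the calls of the last NRDs was not tested either.

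The 4 longest last TiNRDs were chr7:124700001-145400000 (20700 kb, NRI 1.05), chr4:144700001-156300000 (11600 kb, NRI 1.28), chr11:112500001-121900000 (9400 kb, NRI 1.49) and chr16:89500001-98000000 (8500 kb, NRI 0.94). The RT domains that closed these chromosomes were all early, with values of 1.07, 1.35, 1.62 and 0.75. The 4 longest last LoNRDs were chr17:89000001-94900000 (5900 kb, NRI -1.004), chr18:85100001-90700000 (5600 kb, NRI -1.01), chr3:154900001-160000000 (5100 kb, NRI -0.76) and chr12:118000001-120100000 (2100 kb, NRI -0.55). Their last RT domains were early as well, with values of 0.84, 0.86, 0.58 and 0.63, and measured 437, 353, 340 and 329 kb. Fewer NRDs began in the distal ends than elsewhere, with 2.11 ± 1.52 starts per 10 Mb (SD, n = 19 chromosomes) against 4.80 ± 0.713 in the assembled rest, while RT domains had 5.95 ± 2.44 and 6.76 ± 0.806.

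**Figure D5:**
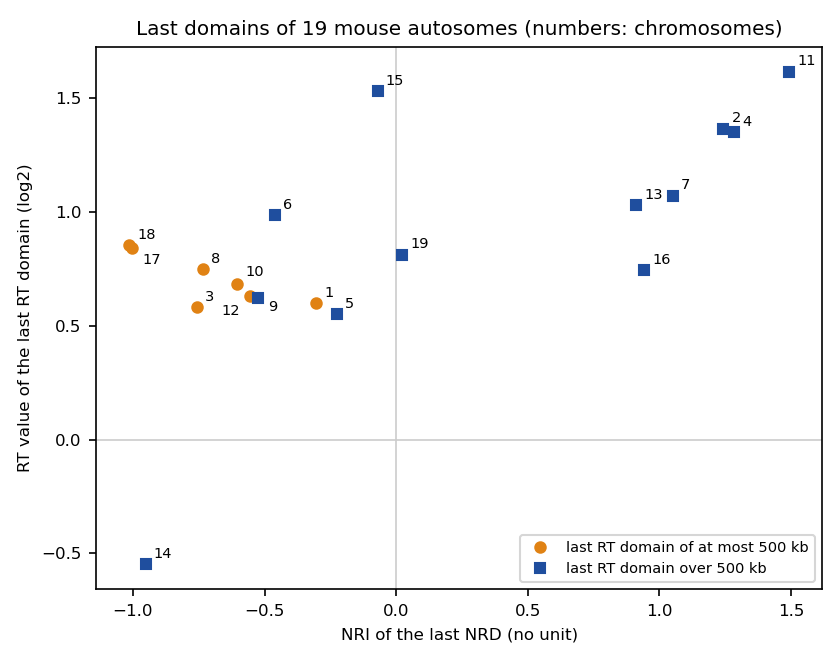
NRI of the last NRD (horizontal axis, no unit) and RT value of the last RT domain (vertical axis, log2) of each of 19 chromosomes, numbered, with round points where the last RT domain measured at most 500 kb. Only chromosome 14 has a negative RT value, while 12 chromosomes have a negative NRI, and all 7 round points are LoNRD with early replication.

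Genes next to the telomere followed the last domains. The protein-coding gene nearest the end lay between 101 and 295 kb from it (median 144 kb). Of these 19 genes 18 were early, 11 lay in LoNRDs, 4 in TiNRDs and 4 past the last NRD. Of all protein-coding genes of the 19 chromosomes with a call, 77.9% were early and 79.5% lay in TiNRDs. Each of the 19 genes has the RT value of the last RT domain of its chromosome. Their early count therefore repeats that of the last domains, and the early ones among those include the terminal gap. Cr2 on chromosome 1, which encodes a complement receptor of B cells, had an NRI of -0.31 and an RT value of 0.60. Wls on chromosome 3, needed for secretion of Wnt proteins, had -0.76 and 0.58. Rfc3 on chromosome 5, a subunit of the clamp loader of DNA replication, had -0.23 and 0.55. The one late gene was Fgf14 on chromosome 14, a regulator of sodium channels, with -0.95 and -0.55. Tcstv3 on chromosome 13, a gene of the 2-cell embryo, lay in a TiNRD (0.91) with an RT value of 1.03, and Mrgprd on chromosome 7, a receptor of sensory neurons, had 1.05 and 1.07. The others, in order of chromosome, were Gm14496 (2), Vmn2r-ps159 (4), Bicd1 (6), 2610044O15Rik8 (8), Gm21836 (9), Vmn2r87 (10), Ptchd3 (11), Tmem196 (12), Mucl2 (15), A630089N07Rik (16), Mettl4 (17), Gm45871 (18) and Gm21060 (19).

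Over all 2005 protein-coding genes of the distal ends, 1754 lay in TiNRDs, 242 in LoNRDs and 9 in neither, and 1703 were early, 250 late and 52 without an RT call. As shares of genes with a call, 87.9% were TiNRD and 87.2% early in the distal ends, against 78.6% and 76.9% in the rest. Genes of a cluster share a domain and its value, so the counts by list are descriptions.

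Several developmental and housekeeping lists had all their distal members in TiNRDs, and some of these lists were mostly TiNRD elsewhere too. All 17 genes of the imprinted cluster on distal chromosome 7 shared 1 TiNRD (NRI 1.05) and 1 early domain (RT value 1.07), and those nearest the end were Dhcr7, an enzyme of cholesterol synthesis, Osbpl5, Tnfrsf23, Nap1l4 and Phlda2, a growth-limiting gene of the placenta, from 1593 to 1938 kb from the end. Gnas, which encodes a G protein subunit, and its antisense gene Nespas on chromosome 2 had an NRI of 1.21 and an RT value of 0.82. All 9 Hoxc genes, homeobox genes of the body axis, lay in a TiNRD (0.85) that was early (1.53), with Hoxc4, Hoxc5, Hoxc6, Hoxc8 and Hoxc9 nearest the end of chromosome 15. The 24 distal keratin genes of chromosome 15, filament genes of epithelia led by Krt18, Krt8, Krt78, Krt79 and Krt4, were all TiNRD, 22 of them early and 2 without an RT call, and the 25 keratin genes of the rest were TiNRD as well. The 10 distal ribosomal protein genes were all TiNRD and early, with Rps21, Rps26, Rpl41, Rplp2 and Rpl14 nearest an end, and in the rest 93.8% of those with a call were TiNRD and 98.5% early. Of the telomere maintenance genes, Rtel1, a helicase, lay 757 kb from the end of chromosome 2 (NRI 1.24, RT value 1.37), and Ten1, a subunit of the CST complex, lay on chromosome 11 (1.49 and 1.62). In the rest 85.7% of that list were TiNRD and 92.9% early. The pluripotency list had Fgf4 and Utf1, both on chromosome 7 and both TiNRD and early, and of its genes in the rest with a call 93.8% were TiNRD and 100% early.

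All 15 distal potassium channel genes lay in TiNRDs, while 10 were early, 4 late and 1 without an RT call. Of those with a call 71.4% were early, and in the rest 78.9% of the family were TiNRD and 64.9% early. Among those nearest the ends were Kcnq1 (RT value 1.07), Kcnk18 (-0.44), Kcnj15 (-0.78) and Kcnh1 (-0.23). Of 44 distal zinc finger genes, 38 were TiNRD and 6 LoNRD, and 38 were early, 2 late and 4 without a call, with Zfp950, Zfp512b, Zfp750, Zfp131 and Zfp385a nearest the ends. Of those with a call 86.4% were TiNRD and 95% early, close to the 81.9% and 93.6% of the family in the rest. The interferon receptor genes Ifngr2, Ifnar1 and Ifnar2 on chromosome 16 were TiNRD (0.94) and early (0.92), and in the rest 69.6% of the interferon list were TiNRD and 73.9% early. The Tcstv genes Tcstv3 and Tcstv1 were both TiNRD and early, and this list had no gene in the rest.

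Receptor and immunoglobulin families held LoNRD genes. Of 89 distal olfactory receptor genes, which encode odorant receptors, 36 were TiNRD and 53 LoNRD, and 34 were early and 48 late, or 40.4% TiNRD and 41.5% early of those with a call, against 18.4% and 24.0% in the rest. Those nearest an end were Olfr827, Olfr826, Olfr825, Olfr824 and Olfr823 on chromosome 10, all in a LoNRD (-0.60) and late (-0.73). The vomeronasal receptor genes Vmn2r87, Vmn2r86 and Vmn2r85, beyond them on chromosome 10, lay in the same LoNRD and were early (0.68). All 6 distal vomeronasal genes, with Vmn2r-ps159 and Vmn2r18 also among the 5 nearest an end, were early, against 17.4% of those in the rest with a call, and 5 were LoNRD. These genes lay on only 3 chromosomes and share domains. On chromosome 10 their early call was that of the last RT domain, 445 kb long with the terminal gap included. The immunoglobulin heavy chain genes on chromosome 12, rearranged in B cells, had 42 TiNRD and 100 LoNRD members, 25 early and 113 late. Those nearest the end, Ighv1-85, Ighv1-84, Ighv1-82, Ighv1-81 and Ighv1-80, were TiNRD (0.49) and late (-0.68). The chemokine receptor genes on chromosome 9 crossed a border of wrapping within 1 early domain (0.62). Ccr2, Ccr3 and Ccr1 lay in the last LoNRD (-0.53), while Xcr1, Cxcr6 and Ccr9 lay in the TiNRD before it (0.89), and Ccr8 further away was TiNRD with an RT value of 0.98. No protocadherin gene lay in a distal bin.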

How the data were processed

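H3-wrapping-seq and replication timing were measured in R1 mouse ES cells. For both, the authors trimmed reads with cutadapt 4.3, aligned them to mm10 with Bowtie2 2.5.1, and used Picard, SAMtools and bedtools 2.30.0. The NRI is a score deposited by the authors for each NRD, a z-score of the balance of longer and shorter fragments in 100 kb bins, smoothed over 10 bins and divided into domains with homer2. The RT value of a domain is a log2 ratio that the authors deposited, made from fragments counted in 50 kb windows, scaled to a common total, quantile normalised and divided into domains with HOMER. Smoothing limits how closely a border near the chromosome end can be placed. The lists hold neither replicates nor read numbers, so that per domain the depth is unknown, whatever that of the libraries, and no interval that needs it was given.

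From these lists, each 100 kb bin was given the domain at its midpoint. Bases, A/T content and assembly gaps were read from GRCm38.p6, the build that mm10 names, and genes from GENCODE vM21, each placed by its midpoint. Shares and means were computed per chromosome, and the 19 differences entered a two-sided permutation test of 100000 sign flips, with Benjamini-Hochberg adjustment over 13 tests. Chromosomes are not biological replicates. Shares at equal A/T content used 20 strata, or 10 for the last 1 Mb against the other distal bins, and bins with at least 50% of assembled bases. Their reference bins were pooled over the 19 chromosomes, apart from 1 alternative with 5 strata within each chromosome. The sign-flip test of distal ends against the rest was tried on simulated runs of calls. The strata were tried on simulated bins drawn independently, without the long domains of real calls. The p-values at equal A/T content and the comparisons within the distal ends were not tried in this way. Calculations used Python 3.11.15, numpy 2.4.6, pandas 2.3.3 and matplotlib 3.10.9. The genes and domains named were the protein-coding gene nearest each end, up to 5 members nearest an end of each gene list, the last domains, the highest and lowest chromosomes and the longest stretch of each combination of calls, with further ones named as chosen after their values were seen. Some genes and sequences that these rules name are not reported here. The members and lists were chosen with earlier results of these data known. Alternatives were other lengths of the distal end, a rest without the first 10 Mb, the domain covering most of the bin, domains of at least 500 kb, bins with at least 50% of assembled bases, pooled bins, bins without a call counted, medians, other strata, other lengths of the last stretch, a shifted first 10 Mb, and each chromosome left out. Distal ends without the last 1 Mb were an alternative added after seeing the data. For the 2 lists, tracks and values per window were not used here.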

Additional observations from a re-analysis of the deposited data

How the results depend on the processing

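Each of 13 results was recomputed under the alternatives, 340 values in all. Of 333 with a test, 309 kept their direction and their side of the threshold of 0.05 on the unadjusted p, and the 7 without a test, from bins pooled over chromosomes, moved by less than 1 SD between chromosomes. Most of the 333 left out 1 chromosome and reused the other 18, so this count is not a measure of robustness. The domain covering most of the bin left the TiNRD shares and the mean NRI unchanged. With the last 5 Mb as the distal end, the differences to the rest missed the threshold for the TiNRD share (13.3 percentage points, p = 0.133), the early share (13.3, p = 0.0549) and the mean NRI (0.34, p = 0.0626, permutation tests), and at equal A/T content the differences changed sign for TiNRD (-0.867) and early RT (0.474), none past the threshold. With the last 20 Mb the early share at equal A/T content passed it (-4.73). Against the first 10 Mb, the early difference was -1.67 for domains of at least 500 kb, 19.1 without bins under 50% assembled, and 18.8 for the first 10 Mb after the first assembled base. For the last 1 Mb against the other distal bins, the early difference was -4.30 for domains of at least 500 kb, -3.69 for the last 2 Mb, -1.26 for the last 3 Mb and 27.4 at equal A/T content. The cause of these changes was not tested. Leaving out each chromosome in turn gave 17.3 to 24.7 percentage points for TiNRD against the first 10 Mb, which missed the threshold without chromosome 1, 4, 5, 6, 9 or 15 (p up to 0.0617), -1.36 to 3.49 for early RT against the first 10 Mb, and 1.61 to 2.87 genes per Mb, which passed it without chromosome 17. No paired analysis was possible because each list is 1 call that names no replicate, and the only pairing in the tests is by chromosome. Most tests at equal A/T content lacked that pairing too, since their reference bins were pooled over chromosomes. The depth behind each domain is unknown, and 36.6% of the bases in the step nearest the end were assembled.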
